A study of Rattus norvegicus with 12 samples.

Results

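The collagen genes were taken as every gene of the array annotation whose symbol consists of Col, a number, the letter a and a number, such as Col15a1. This gave 41 collagens among the 14217 genes of the table, from 58 probe sets. They comprised 11 fibrillar collagens, 7 basement membrane collagens, 5 type VI collagens, 9 fibril-associated collagens, 3 short-chain network collagens, 4 transmembrane collagens and 2 others (Col7a1 and Col26a1). Of the 44 collagen genes in the GRCr8 gene table, Col4a3, Col6a4 and Col28a1 had no probe set of their own here and have no value below.

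RNA was prepared from abdominal mammary gland pairs of female rats of the Sprague-Dawley strain, killed on postnatal day 64. Their protein from day 30 was either casein, from milk, or soy protein isolate, a soybean preparation that carries plant isoflavones. Every rat of every group was ovariectomized on day 50, which takes away the main source of estrogen, and 17β-estradiol (E2) from an osmotic minipump or vehicle followed for 14 days. The groups were casein plus E2, casein, soy plus E2 and soy, each with 3 arrays of pooled RNA. The labels of the E2 group without soy do not name its diet, and casein was read from the treatment description. The labels do not say how many rats made up a pool or whether pools of a group held different rats, so the p-values reflect only how pools differ, which may be technical.

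Collagens are proteins of 3 chains wound into a triple helix. Fibrillar collagens form the tensile fibrils of connective tissue, and type IV collagens form the sheet under epithelia, around fat cells and around vessels. In the mammary gland the ducts lie in a basement membrane within a collagen-rich stroma and a fat pad, and collagen is made mainly by stromal cells, although epithelial, fat and vessel cells also make some chains. RNA of the whole gland was measured, so fewer cells of a type and less RNA per cell cannot be told apart.

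Values were log2 values that had been centred on 0 for each probe set across the arrays. They show how arrays differ for a gene and carry no expression level, so collagens could not be ranked by abundance and the presence of a cell type could not be read from its markers. Pools 2 and 3 of casein plus E2 gave almost identical values, with an SD of the difference of 0.163 over all probe sets against 0.302 or more in the 65 other pairs. They were averaged and counted as 1 sample, which leaves 5 samples with E2 and 6 without. Casein pool 2 and soy pool 2 were highest in skeletal muscle transcripts, with mean marker values of 3.68 and 3.88, and casein pool 1 stood at 1.73. Casein pool 3 carried liver transcripts, with a mean marker value of 5.84. In soy plus E2 pool 3 the median collagen stood at 0.12, above every other sample with E2 and inside the range of the vehicle samples.

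Averaged over both diets, E2 lowered type I and type III collagen, 3 of 5 type VI chains and Col8a1, Col14a1 and Col15a1. It raised Col2a1 and Col9a3, known mainly from cartilage, and Col17a1, of the epithelial attachment. Of 41 collagens 9 fell and 3 rose (limma, Benjamini-Hochberg adjusted p under 0.05 over all genes). The 9 that fell are 22% of the collagens, against 5.51% of all genes called lower, and the 3 that rose are 7.32%, against 6.73% of all genes called higher. At an unadjusted p under 0.05 there were 27 collagens (65.9%), against 29% of all genes. The median change of the collagens was -0.24 on the log2 scale, against 0.00 for all genes. In 3 of the called collagens (Col1a2, Col8a1 and Col14a1) every sample with E2 lay below every sample without it, which held for 2.62% of all genes. In Col9a3 and Col17a1 every sample with E2 lay above, which held for 4.26% of all genes.

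**Figure D1:**
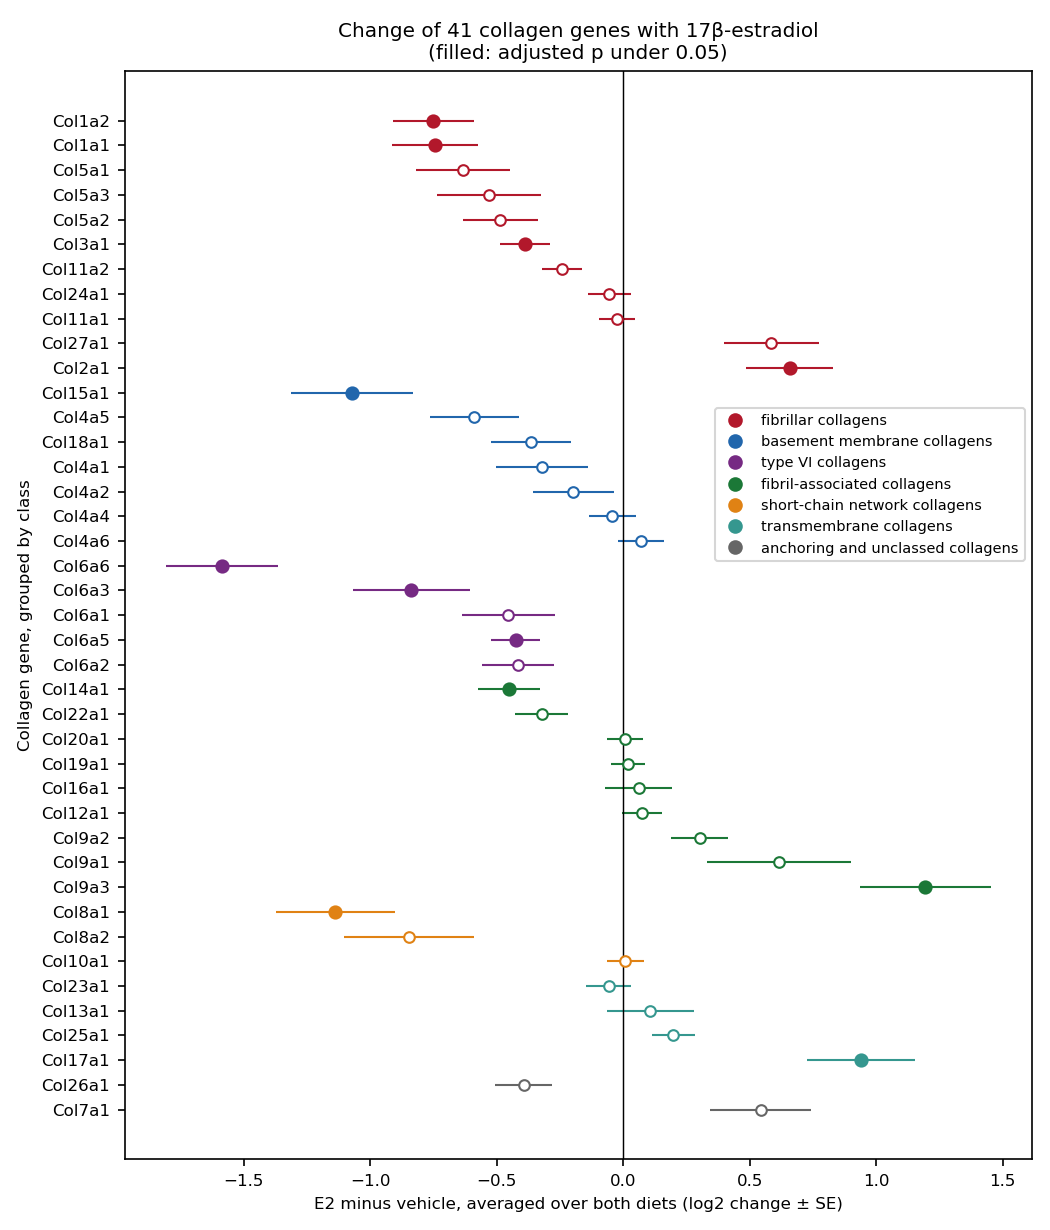
Each row is a collagen gene and the horizontal axis is its log2 change with 17β-estradiol averaged over casein-fed and soy-fed rats, with bars of 1 SE and filled points for an adjusted p under 0.05. The changes run from -1.59 for Col6a6 to 1.19 for Col9a3, and the 5 type VI chains all lie left of 0.

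Promoter sequences are shown for 4 collagens, of which Col4a1 did not pass for the E2 average. Col1a2 stands for the fibrillar chains that fell, Col6a6 for the collagen with the largest fall, Col17a1 for those that rose and Col4a1 for the type IV pair that shares its promoter. Each is the 250 bases before the gene's start in RefSeq, GRCr8, written 5′ to 3′ on the gene's strand, with the TATA box (TATAAA), the CCAAT box and the GC box (GGGCGG), on either strand, in capitals.
Col1a2 (chr4:33518307-33518556, + strand): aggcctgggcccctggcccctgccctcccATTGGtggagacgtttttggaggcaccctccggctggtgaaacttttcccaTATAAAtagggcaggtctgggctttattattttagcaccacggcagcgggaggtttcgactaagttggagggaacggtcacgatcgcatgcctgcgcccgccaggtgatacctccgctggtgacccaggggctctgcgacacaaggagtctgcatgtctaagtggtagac
Col6a6 (chr8:115352162-115352411, - strand): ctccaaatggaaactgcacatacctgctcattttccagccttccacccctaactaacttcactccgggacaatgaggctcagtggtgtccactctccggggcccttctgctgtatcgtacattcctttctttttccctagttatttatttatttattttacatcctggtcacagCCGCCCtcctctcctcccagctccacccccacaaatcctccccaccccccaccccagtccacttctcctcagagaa
Col17a1 (chr1:256518858-256519107, - strand): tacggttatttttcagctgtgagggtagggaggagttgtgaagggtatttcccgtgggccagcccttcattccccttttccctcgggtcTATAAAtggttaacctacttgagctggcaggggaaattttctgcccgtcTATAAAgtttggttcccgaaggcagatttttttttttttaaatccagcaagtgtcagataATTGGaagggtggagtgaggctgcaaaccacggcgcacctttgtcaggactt
Col4a1 (chr16:84885347-84885596, + strand): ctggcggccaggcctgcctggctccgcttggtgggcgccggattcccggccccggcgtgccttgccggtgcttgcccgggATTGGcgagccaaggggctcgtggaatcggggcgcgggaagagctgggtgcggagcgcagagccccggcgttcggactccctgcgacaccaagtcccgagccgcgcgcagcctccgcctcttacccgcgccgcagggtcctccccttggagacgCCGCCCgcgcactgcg

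In these windows Col1a2 had 1 TATAAA and 1 CCAAT motif, the CCAAT read on the other strand as ATTGG. Col17a1 had 2 TATAAA motifs and 1 CCAAT motif, Col6a6 had 1 GGGCGG motif, and Col4a1 had 1 CCAAT and 1 GGGCGG motif. Sequences were matched for 32 of the 41 collagens. Among the called collagens Col1a1, Col2a1, Col3a1, Col9a3 and Col14a1 had none. GGGCGG, the GC box, occurred in 56.2% of these 32 windows and in 32.4% of 27457 windows of all genes. The collagen windows had a median GC content of 59%, against 52% over all windows. TATAAA occurred in 12.5% of collagen windows against 13.1% of all, CCAAT in 28.1% against 34.3%, and GGTCA, the letters of an estrogen response element's inner repeat, in 25% against 35.2%. Both strands were searched, and a match describes letters and not a bound site.

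Among the fibrillar collagens 3 of 11 fell (27.3%) and 1 rose (9.09%), with a median change of -0.39. Over all genes 5.51% were called lower and 6.73% higher. Col1a2, which encodes the second chain of type I collagen, the main collagen of tensile fibrils, stood at -0.27 in casein plus E2 pool 1 and at -0.99 in the mean of pools 2 and 3, against 0.14, 0.30 and 0.21 in casein pools 1 to 3. In soy plus E2 pools 1 to 3 it stood at -0.64, -0.70 and -0.04, against 0.37, 0.17 and 0.05 in soy pools. All samples with E2 were below all samples without it, and soy plus E2 pool 3 was the highest of them. The change was -0.75 ± 0.16 (log2 ± SE, adjusted p = 0.0205), or 40.6% lower, and both probe sets moved alike (-0.72 and -0.78).

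Col1a1, the partner chain that makes up most of the type I helix, stood at -0.39 and -1.04 in the casein plus E2 samples, against 0.05, 0.28 and 0.21 in casein pools. Its values were -0.72, -0.77 and 0.04 in soy plus E2 pools, against 0.26, 0.11 and -0.01 in soy pools. Soy plus E2 pool 3 lay among the vehicle samples and the other samples with E2 lay below them all. The change of -0.75 ± 0.17 (adjusted p = 0.0259) was close to that of Col1a2 (-0.75).

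Col3a1 encodes type III collagen, which joins type I in the fibrils of soft tissue. It stood at -0.15 and -0.50 in the casein plus E2 samples, against -0.01, 0.21 and 0.01 in casein pools, and at -0.38, -0.32 and 0.03 in soy plus E2 pools, against 0.20, 0.15 and 0.14 in soy pools. Groups did not overlap within either diet, and the change was -0.39 ± 0.10 (adjusted p = 0.0355), the smallest of the collagens that fell. Col3a1 passed in 4 of the 12 fits that each left out 1 array. The type V chains, which start and size fibrils of type I, had like changes that did not pass: -0.63 ± 0.19 for Col5a1 (adjusted p = 0.0551), -0.49 ± 0.15 for Col5a2 (adjusted p = 0.0603) and -0.53 ± 0.21 for Col5a3 (adjusted p = 0.122). In all 3 type V chains soy plus E2 pool 3 overlapped the soy pools, at 0.02, 0.15 and 0.30. Leaving out each of the 12 arrays in turn, each type V chain passed 1 time, without that pool (-0.74, -0.57 and -0.66). Over all settings tried their adjusted p reached 0.158 (Col5a1), 0.168 (Col5a2) and 0.242 (Col5a3).

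Col2a1, the main fibrillar collagen of cartilage, rose. It stood at 0.77 and 0.20 in the casein plus E2 samples, against 0.03, -0.53 and -0.05 in casein pools, and at 0.03, 0.75 and 0.25 in soy plus E2 pools, against -0.15, -0.22 and -0.54 in soy pools. Groups did not overlap within either diet. Its change was 0.66 ± 0.17 (adjusted p = 0.0393), but its 3 probe sets gave 0.18, 1.08 and 0.72, and none of them passed when probe sets were tested one by one. Col2a1 passed in 6 of the 12 fits that each left out 1 array. The remaining fibrillar collagens did not pass and ranged from -0.24 for Col11a2, a cartilage fibril chain, to 0.59 for Col27a1 (adjusted p = 0.0726).

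**Figure D2:**
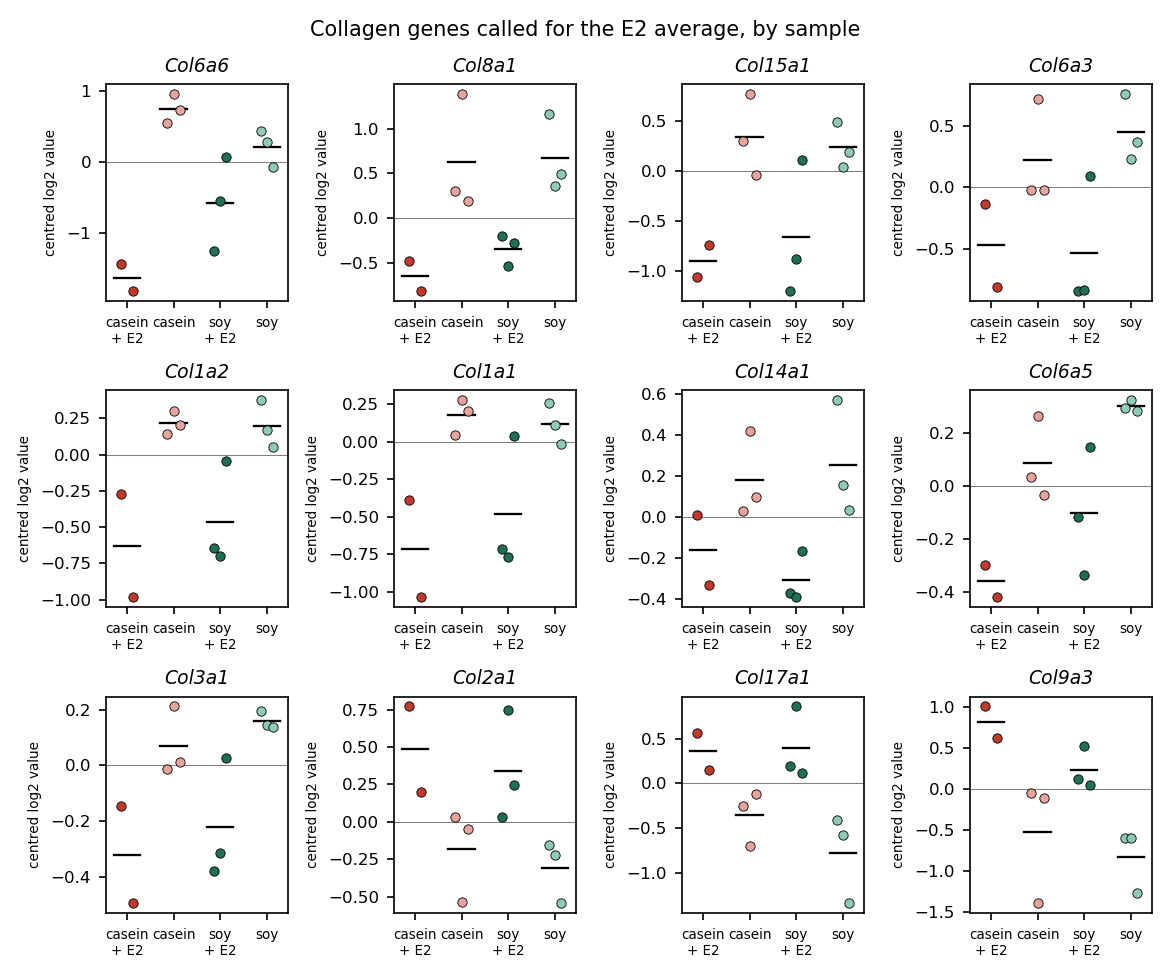
Centred log2 values of the 12 collagens that passed for the E2 average, with a point for each sample (casein plus E2 pools 2 and 3 as their mean) and a line at each group mean. In the 9 collagens that fell, soy plus E2 pool 3 is the highest sample of its group except in Col8a1, where it stands at -0.27 between the other 2 pools.

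Of the 7 basement membrane collagens 1 fell and 0 rose, beside 5.51% of all genes called lower and 6.73% higher. Their median change was -0.32. Col15a1 encodes type XV collagen, a proteoglycan that links basement membranes to the fibrils beneath them and is prominent around vessels, muscle and fat. It stood at -1.07 and -0.74 in the casein plus E2 samples, against 0.30, 0.77 and -0.04 in casein pools. In soy plus E2 pools it stood at -1.21, -0.88 and 0.12, against 0.49, 0.04 and 0.19 in soy pools. Pool 3 of soy plus E2 lay among the soy pools, and the other samples with E2 were lower than every vehicle sample. The change was -1.07 ± 0.24 (adjusted p = 0.0253), or 52.4% lower, with -1.15 and -0.996 for its 2 probe sets, each of which passed.

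Col4a1 and Col4a2, the chains of the type IV network found in nearly all basement membranes, did not pass. The genes lie head to head on chromosome 16 with starts 76 bases apart, so the Col4a1 promoter printed above overlaps that of Col4a2. Col4a1 stood at -0.12 and -0.15 in the casein plus E2 samples, against 0.24, 0.58 and 0.05 in casein pools, and at -0.60, 0.03 and 0.27 in soy plus E2 pools, against 0.51, -0.12 and -0.02 in soy pools. Col4a2 stood at -0.35 and -0.51 in the casein plus E2 samples, against 0.26, 0.18 and 0.12 in casein pools, and at -0.35, 0.29 and 0.45 in soy plus E2 pools, against 0.26, -0.12 and -0.40 in soy pools. Casein groups did not overlap for either chain and soy groups did for both. The averaged changes were -0.32 ± 0.18 for Col4a1 (adjusted p = 0.277) and -0.20 ± 0.16 for Col4a2 (adjusted p = 0.463), and the Col4a2 change was -0.62 ± 0.24 in casein-fed and 0.22 ± 0.21 in soy-fed rats.

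The other type IV chains have more limited distributions, such as kidney for Col4a4. Col4a5 had -0.59 ± 0.18 (adjusted p = 0.0586), Col4a4 -0.04 ± 0.09 and Col4a6 0.07 ± 0.09. Col18a1, the precursor of the angiogenesis inhibitor endostatin, had -0.37 ± 0.16 (adjusted p = 0.163). None of these 4 passed. Of the 12 fits that each left out 1 array, Col4a5 passed in 2 and Col18a1 in 1, and their adjusted p reached 0.183 and 0.276 over all settings. Col4a1, Col4a2, Col4a4 and Col4a6 passed in 0 of the 12.

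Of the 5 type VI collagens 3 fell, beside 5.51% of all genes called lower. All 5 had negative changes with a median of -0.45, and 48.9% of all genes had negative changes. Type VI collagen forms beaded microfilaments around cells and is abundant around fat and muscle cells. Col6a6, a chain that can take the place of Col6a3 in the helix, stood at -1.44 and -1.83 in the casein plus E2 samples, against 0.55, 0.96 and 0.73 in casein pools. In soy plus E2 pools 1 to 3 it stood at -1.26, -0.56 and 0.07, against 0.44, 0.29 and -0.07 in soy pools. The casein groups lay more than 1 log2 unit apart, while soy plus E2 pool 3 lay among the soy pools. The averaged change of -1.59 ± 0.22 (adjusted p = 0.0068), or 66.7% lower, was the largest of any collagen, and Col6a6 was measured by 1 probe set.

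Col6a3, the long chain of the usual helix, stood at -0.13 and -0.81 in the casein plus E2 samples, against -0.02, 0.72 and -0.02 in casein pools. It stood at -0.84, -0.84 and 0.09 in soy plus E2 pools, against 0.76, 0.24 and 0.37 in soy pools, and fell by 0.84 (-0.84 ± 0.23, adjusted p = 0.0447). The Col6a3 probe sets gave -0.78 and -0.90, and only the first passed when probe sets were tested one by one. Col6a3 passed in 4 of the 12 fits that each left out 1 array, and did not pass with its probe set of largest SD. Col6a5, another alternative chain, stood at -0.30 and -0.42 in the casein plus E2 samples, against 0.03, 0.27 and -0.03 in casein pools. Its values were -0.12, -0.34 and 0.15 in soy plus E2 pools, against 0.30, 0.32 and 0.28 in soy pools. Neither chain's groups overlapped within a diet, and the Col6a5 change was -0.43 ± 0.10 (adjusted p = 0.0251). Col6a6 and Col6a5 are neighbours on chromosome 8, 10.4 kb apart on the same strand. Col6a1 (-0.45 ± 0.19, adjusted p = 0.138) and Col6a2 (-0.42 ± 0.14, adjusted p = 0.0853), the short chains of the helix, did not pass, and the Col6a2 probe sets gave -0.60 and -0.24. Each passed in 1 of the 12 fits that left out an array, the fit without soy plus E2 pool 3 (-0.57 for Col6a1 and -0.51 for Col6a2), and over all settings their adjusted p reached 0.295 and 0.218.

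Beside 5.51% of all genes called lower, 1 of the 3 short-chain network collagens fell, Col8a1. It encodes a chain of type VIII collagen, made by vessel wall cells and in the membrane behind the cornea. Values were -0.47 and -0.81 in the casein plus E2 samples, against 0.31, 1.38 and 0.20 in casein pools, and -0.20, -0.53 and -0.27 in soy plus E2 pools, against 1.16, 0.36 and 0.50 in soy pools. Every sample with E2, soy plus E2 pool 3 included, was below every sample without it. The change was -1.14 ± 0.23 (adjusted p = 0.0191), or 54.5% lower. Its partner chain Col8a2 had -0.85 ± 0.26 (adjusted p = 0.0604) and did not pass. Col10a1, the collagen of cartilage that turns to bone, had 0.01 ± 0.07.

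Of the 9 fibril-associated collagens, which lie on the surface of fibrils, 1 fell and 1 rose. Over all genes 5.51% were called lower and 6.73% higher. Col14a1, which binds type I fibrils, stood at 0.01 and -0.33 in the casein plus E2 samples, against 0.03, 0.42 and 0.10 in casein pools, and at -0.37, -0.39 and -0.17 in soy plus E2 pools, against 0.57, 0.15 and 0.03 in soy pools. Casein plus E2 pool 1 and casein pool 1 differed by little, and the change was -0.45 ± 0.12 (adjusted p = 0.044). The Col14a1 probe sets gave -0.51 and -0.40, and only the first passed when probe sets were tested one by one. Col14a1 passed in 4 of the 12 fits that each left out 1 array. Col9a3, a chain of the type IX collagen that coats cartilage fibrils of type II, stood at 1.01 and 0.63 in the casein plus E2 samples, against -0.05, -1.39 and -0.11 in casein pools, and at 0.12, 0.53 and 0.05 in soy plus E2 pools, against -0.60, -0.60 and -1.27 in soy pools. All samples with E2 were higher than all without, by 1.19 ± 0.26 on average (adjusted p = 0.0226), or 2.29-fold. The partner chains had 0.62 ± 0.29 (Col9a1) and 0.30 ± 0.11 (Col9a2) and did not pass. The other 5 ranged from -0.32 for Col22a1, a collagen of muscle to tendon junctions, to 0.07 for Col12a1, which binds type I fibrils.

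Col17a1 was the transmembrane collagen that rose (1 of 4, beside 6.73% of all genes called higher). It spans the membrane of basal epithelial cells in hemidesmosomes, the rivets that hold them to the basement membrane. It stood at 0.57 and 0.15 in the casein plus E2 samples, against -0.25, -0.70 and -0.12 in casein pools, and at 0.19, 0.86 and 0.12 in soy plus E2 pools, against -0.40, -0.58 and -1.34 in soy pools. The samples with E2 lay above all others, with a change of 0.94 ± 0.21 (adjusted p = 0.0254), or 1.92-fold. Col7a1, which forms the anchoring fibrils below the hemidesmosome, had 0.54 ± 0.20 and did not pass (adjusted p = 0.107). The other transmembrane collagens ranged from -0.06 for Col23a1 to 0.20 for Col25a1. Col26a1 had -0.39 ± 0.11 (adjusted p = 0.0503).

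**Figure D3:**
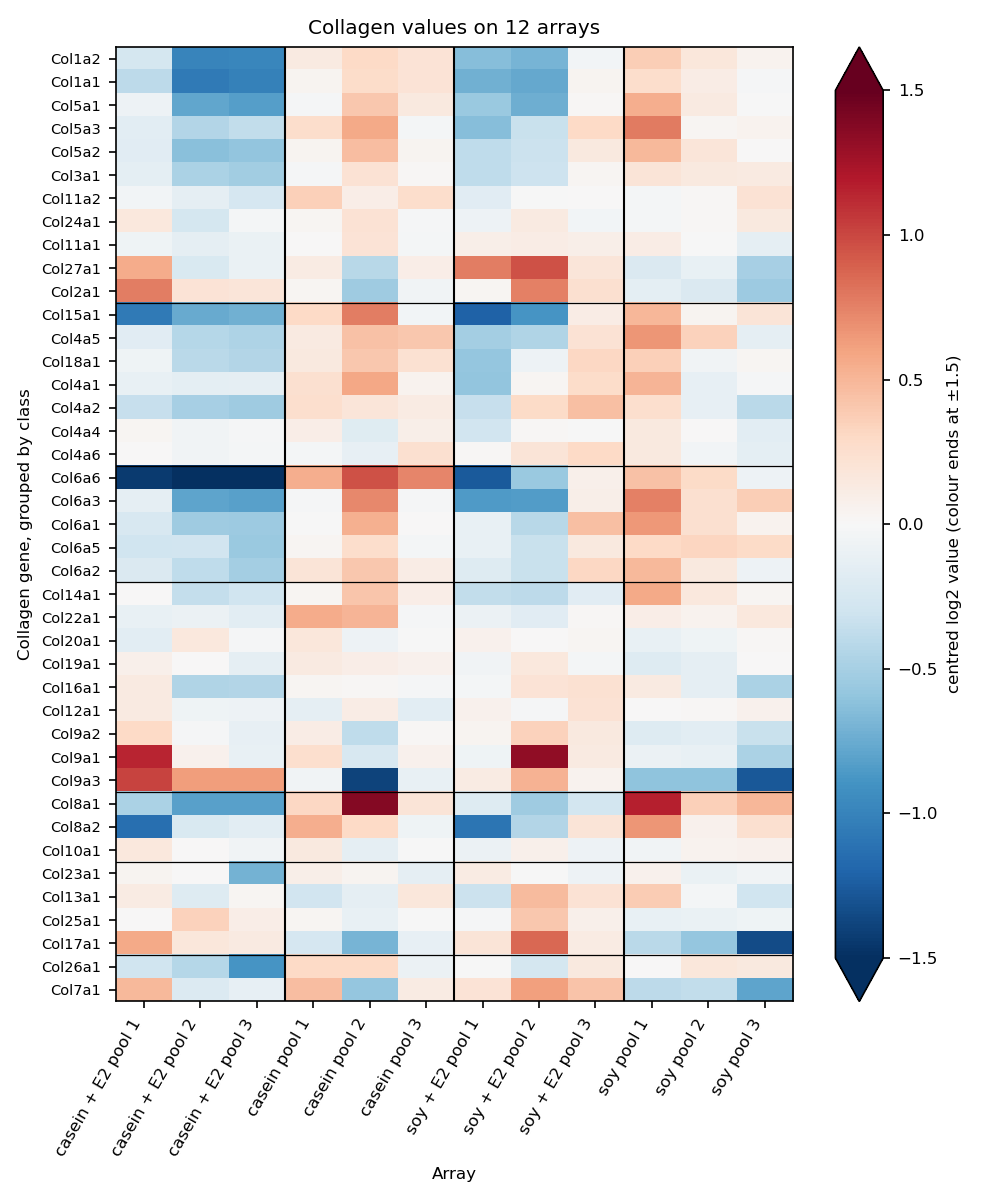
Centred log2 values of all 41 collagens (rows, ordered by class and change) on each of the 12 arrays (columns), blue below 0 and red above. Most fibrillar and type VI chains are blue on casein plus E2 pools 1 to 3 and soy plus E2 pools 1 and 2, as are most basement membrane chains except on soy plus E2 pool 2, and soy plus E2 pool 3 has 8 collagens below 0.

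Marker genes of several cell types moved with E2 beside the collagens, and their part in the collagen changes was not tested. The counts below are for the E2 average, where 5.51% of all genes were called lower and 6.73% higher. Of 14 fibroblast markers 5 fell, and the mean of the 14 per sample ran from -0.523 to 0.032 with E2, against 0.025 to 0.375 without it. In soy-fed rats 1 of the 14 changed by -4.33, against a list median of -0.26, and did not pass, so it weighs on these means. Of 11 adipocyte markers 8 fell (-1.30 to 0.09 with E2, against -0.06 to 0.80), and of 11 endothelial markers 5 fell (-0.55 to 0.11 with E2, against -0.04 to 0.30). The median endothelial change was -0.84 in casein-fed and -0.15 in soy-fed rats, and 0 of the 11 passed for the difference between diets. Of 10 smooth muscle and pericyte markers 4 fell (-0.41 to 0.06 with E2, against -0.36 to 0.30). These were Cspg4, Rgs5, Abcc9 and Kcnj8, whereas Acta2, Myh11, Tagln, Cnn1 and Des did not pass. Of the 10, 6 had negative changes and the highest change was 0.59. Their median change was -0.46 in casein-fed and -0.04 in soy-fed rats. Of 9 mast cell markers 8 fell (-1.29 to -0.21 with E2, against 0.19 to 0.89). In the other direction 6 of 13 luminal epithelial markers rose (-0.01 to 0.52 with E2, against -1.42 to -0.03), as did 4 of 8 basal epithelial markers (-0.10 to 0.36 with E2, against -0.85 to 0.03). Soy plus E2 pool 3, where collagens were near their vehicle values, had the lowest luminal mean of the samples with E2. It also had their highest adipocyte, endothelial, smooth muscle and mast cell means. Its fibroblast mean (-0.124) was below that of casein plus E2 pool 1 (0.032). Its basal mean (0.125) was above that of soy plus E2 pool 1 (-0.101). No marker of skeletal muscle (13 markers), liver (12) or lymphocytes (10) passed, although the muscle mean reached 3.88 and the liver mean 5.84 without E2, against at most 0.62 and 0.28 with it.

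The number of collagens that passed depended on single pools. With all samples 12 passed, beside 12.2% of all genes, and the counts moved with those of the whole array. Without soy plus E2 pool 3 there were 22 (18 lower and 4 higher), including the same 12, beside 16.4% of all genes. Leaving out soy plus E2 pool 2 left 1 call, beside 4.5% of all genes, and leaving out pool 1 of that group left 3, beside 4.52%. When casein plus E2 pool 1 was left out 3 passed, beside 2.2% of all genes, and when casein pool 2 was left out 5 passed, beside 6.32%. There were 3 calls (Col6a6, Col8a1 and Col9a3) without the 2 pools highest in muscle transcripts, beside 1.74% of all genes. That fit kept casein pool 1, with a muscle mean of 1.73. The changes were about as large there, such as -0.72 for Col1a1, -0.74 for Col1a2, -1.02 for Col15a1 and 0.90 for Col17a1. Col6a6 was the only collagen that passed without each array in turn, with changes from -1.75 to -1.42. The other called collagens passed in 4 to 10 of these 12 fits. The 12 called collagens kept their direction in every setting tried.

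Within each diet fewer collagens passed. In casein-fed rats Col6a6 fell by 2.38 (-2.38 ± 0.33, adjusted p = 0.0171), and it was the only called collagen, against 2.43% of all genes called, 0.95% lower and 1.48% higher. It did not pass there when casein pool 1, casein pool 2 or pool 1 of casein plus E2 was left out. At an unadjusted p under 0.05 there were 18 collagens, or 43.9%, against 19.6% of all genes. Groups did not overlap in 23 collagens that were lower and in 3 that were higher, against 17.3% and 22.5% of all genes. All 7 basement membrane collagens and all 5 type VI collagens had negative changes in casein-fed rats, against 46.8% of all genes. Among them Col4a4 (-0.001 ± 0.138) and Col4a6 (-0.046 ± 0.137) stood near 0.

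In soy-fed rats 0 collagens passed in limma, against 0.218% of all genes, 0.0352% lower and 0.183% higher. At an unadjusted p under 0.05 there were again 18 collagens (43.9%), against 20.6% of all genes, and without soy plus E2 pool 3 there were 7 calls, beside 5.35% of all genes. Groups did not overlap in 7 collagens that were lower and in 8 that were higher, against 12% and 12.6% of all genes. The smallest adjusted p values were 0.095 for Col17a1 (1.16 ± 0.28), 0.115 for Col27a1 (0.91 ± 0.25) and 0.122 for Col7a1 (0.93 ± 0.27). Col8a1 had -1.01 ± 0.31 and Col6a3 had -0.98 ± 0.31.

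The direction was the same in both diets in 33 of 41 collagens, 23 lower and 10 higher, against 66.1% of all genes. The 8 that differed in sign were Col4a2, Col4a6, Col10a1, Col11a1, Col16a1, Col19a1, Col20a1 and Col23a1. The difference between the E2 effects in soy-fed and casein-fed rats was tested directly, and 0 collagens and 0% of all genes passed. At an unadjusted p under 0.05 there were 2 collagens, Col6a6 and Col4a2, or 4.88% against 6.53% of all genes. For Col6a6 the difference was 1.58 ± 0.44 (95% interval 0.59 to 2.57, adjusted p = 0.548), with a change of -0.80 ± 0.29 in soy-fed rats against -2.38 ± 0.33 in casein-fed rats. For Col4a2 it was 0.84 ± 0.32 (95% interval 0.12 to 1.55, adjusted p = 0.728). The 95% interval of the difference reached beyond 1 log2 unit in 16 of the 41 collagens.

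**Figure D4:**
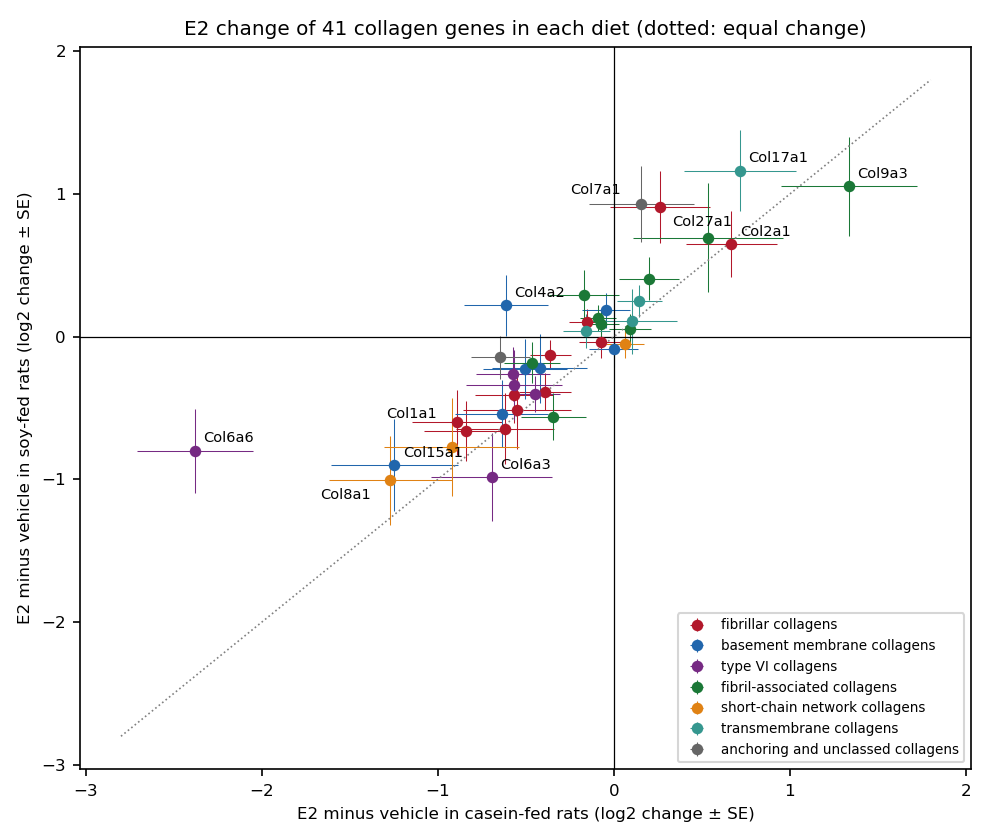
Log2 change with E2 in soy-fed rats (vertical axis) against that in casein-fed rats (horizontal axis) for 41 collagens, with bars of 1 SE and a dotted line of equal change. Col6a6 lies farthest from the line, at -2.38 in casein-fed and -0.80 in soy-fed rats, and 33 collagens have the same sign in both diets.

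Soy itself moved no collagen past the threshold. Without E2, 0 of 41 collagens passed for soy against casein in limma (0% of all genes), and 1 had an unadjusted p under 0.05, Col19a1 (-0.21 ± 0.09, adjusted p = 0.476), against 10.4% of all genes. Groups did not overlap in 2 lower and 1 higher collagens there, against 5.51% and 7.79% of all genes. With E2, 0 passed (0.00703% of all genes) and 3 had an unadjusted p under 0.05, against 5.1% of all genes, and groups did not overlap in 1 lower and 4 higher collagens, against 12.8% and 10.5%. The 3 were Col6a6 (1.05 ± 0.33, adjusted p = 0.753), Col26a1 (0.44 ± 0.17, adjusted p = 0.924) and Col4a2 (0.56 ± 0.24, adjusted p = 0.973). These values use the same casein plus E2 and soy plus E2 samples as the E2 effects above. Averaged over both E2 levels 0 passed (0% of all genes) and 1 had an unadjusted p under 0.05, Col6a5 (0.24 ± 0.10, adjusted p = 0.685), against 7.07% of all genes. For 40 of the 41 collagens the 95% interval of this average lay within 1 log2 unit of 0. For Col9a3 it ran from -1.03 to 0.13. The separate soy intervals reached beyond 1 log2 unit in 5 collagens without E2 and in 8 with E2. For Col6a6 the average (0.26) joined changes of opposite sign, -0.53 without E2 and 1.05 with it.

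Some genes of collagen synthesis and processing fell with E2 as well. Of 24 synthesis and processing genes 4 fell and 0 rose (median -0.20), beside 5.51% of all genes called lower and 6.73% higher. Pcolce, an enhancer of the cleavage that lets procollagen assemble, stood at -0.51, -1.25 and -1.33 in casein plus E2 pools 1 to 3, against 0.06, 0.83 and 0.22 in casein pools, and at -1.05, -1.06 and -0.06 in soy plus E2 pools, against 0.82, 0.23 and 0.13 in soy pools. Its samples with and without E2 did not overlap, and it fell by 1.19 (-1.19 ± 0.25, adjusted p = 0.0211). The crosslinking enzymes Loxl2 (-0.96 ± 0.19) and Lox (-0.91 ± 0.21) and the prolyl hydroxylase subunit P4ha2 (-0.57 ± 0.13) also fell.

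Of 18 proteins that bind or lie on fibrils 7 fell and 1 rose (median -0.48), beside 5.51% of all genes called lower and 6.73% higher. The small leucine-rich protein Aspn (-1.04 ± 0.26), the collagen-binding Sparc (-0.94 ± 0.22), Dpt (-0.88 ± 0.19) and Prelp (-0.79 ± 0.19) fell most, and Fmod, which shapes fibrils, rose (0.68 ± 0.18). Among 9 collagen receptors Ddr2, which is found on stromal cells and binds fibrillar collagen, fell by 0.68 (-0.68 ± 0.13, adjusted p = 0.0167). Ddr1, found mainly on epithelial cells, rose by 0.76 ± 0.17 (adjusted p = 0.0228). It stood at 0.36, 0.27 and 0.42 in casein plus E2 pools, against -0.30, -0.57 and -0.12 in casein pools, and at 0.41, 0.32 and 0.05 in soy plus E2 pools, against -0.12, -0.54 and -1.09 in soy pools. The samples with E2 were all above those without. Itga1, an integrin chain for type IV and type I collagen, fell by 0.54 (-0.54 ± 0.13).

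**Figure D5:**
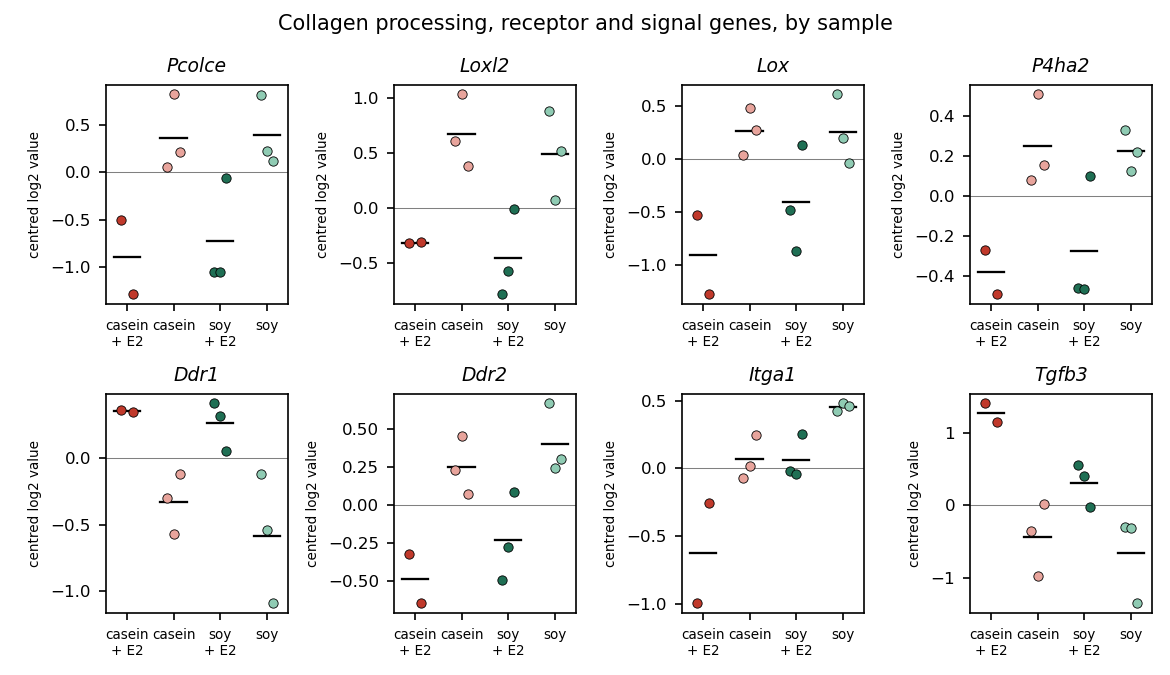
Centred log2 values of 8 genes that process collagen, bind it on cells or signal to matrix-forming cells, with a point for each sample (casein plus E2 pools 2 and 3 as their mean) and a line at each group mean. Pcolce, Loxl2, Lox, P4ha2, Ddr2 and Itga1 have lower group means with E2 in both diets, and Ddr1 and Tgfb3 have higher ones.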

How the data were processed

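The deposited table held log2 values of 31099 probe sets on 12 Affymetrix arrays, centred on each probe set's median by the authors, as the values show. GCOS is named per the submitters' processing notes. The log base was read from the range, and summarisation and normalization are not stated in the sources used, so each fold rests on that reading. The labels' description mentions liver for all arrays, against mammary gland as their stated source.

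A gene's value was the mean of its 1-symbol probe sets in the platform annotation, used without further normalization or filter. limma 3.58.1 (lmFit and eBayes without a trend, R 4.3.3) fitted 4 group means to 11 samples with 7 residual degrees of freedom, and 7 contrasts were tested two-sided with Benjamini-Hochberg adjustment over 14217 genes. The code was tested on simulated data. Group and pool number came from the sample titles.

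The members, lists and contrasts were chosen with earlier results of these data known. Named collagens were types I, III, IV, V, VI, XV and XVIII, all called ones, class extremes and, where few passed, up to 3 of smallest p per contrast. Up to 4 called genes per other list were named. Promoters came from RefSeq. The number of arrays limits the precision.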

Additional observations from a re-analysis of the deposited data

How the results depend on the processing

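Of 505 changes of named collagens recomputed under other settings, 417 kept their direction and side of the threshold, 67 lost the call, 20 gained it and 1 turned its sign (Col4a4 for the E2 average, -0.04, which ran from -0.089 to 0.006 leaving out each array, with the positive value without soy plus E2 pool 1). The causes were not tested. For the E2 average 12 collagens and 12.2% of all genes passed. With 12 separate arrays 20 passed (18.6% of all genes), and with array weights 21 (23.3%). Without the 2 pools highest in muscle transcripts 3 passed (1.74%). Leaving out each array in turn gave 1 to 22. Quantile normalization, arrays centred on their median, the probe set of largest SD and a variance trend gave 12, 13, 11 and 16. With the sign of the spike-in probe sets as a term 11 passed (6 lower and 5 higher), 9 of them among the 12. Col3a1, Col6a3 and Col14a1 lost the call there. All 12 had the same direction among samples with high spike-in signal (2 with E2, 4 without) and with low signal (3 with E2, 2 without). The 12 were called on these same samples, which favours such agreement, so it decides nothing about the spike-in split. For E2 in casein-fed rats, where 1 passed (2.43% of all genes), 9 passed with separate arrays (9.63%), 8 with array weights (9.9%), 2 (1 lower and 1 higher) after quantile normalization (4.42%), 0 without the muscle pools (0.0703%) and 0 to 4 leaving out each array. For E2 in soy-fed rats, where 0 passed (0.218% of all genes), 13 passed with array weights (14.3%) and 0 to 7 leaving out each array. The contrasts of soy and of the difference between diets kept 0 in every setting. Where a group keeps 1 sample, it is assumed to vary like the other groups.

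Pool number as a replicate block was fitted to 12 separate arrays and gave 14 collagens for the E2 average, 4 for E2 in casein-fed rats and 0 for E2 in soy-fed rats, against 20, 9 and 0 in the fit of 12 separate arrays without the block. Deviations of same-numbered pools correlated at -0.42 to 0.14 over 12 pairs, 2 of them over 0.1. In 5 of the 12 pairs the pool of the same number was the best match. Casein pool 2 and soy pool 2, the pools highest in muscle transcripts, also share a number. With so few pools per group these correlations cannot show whether same-numbered pools were handled together, which was not tested. Fitting only the groups of a contrast was not run where a contrast uses all 4 groups. Centred values give no signal over background, so dim probe sets could not be set apart.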

Other observations

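Proteins that share the basement membrane with collagens were mixed in direction. Of 16 non-collagen basement membrane genes 2 fell and 2 rose for the E2 average (limma, adjusted over all genes). Of all genes 5.51% were called lower and 6.73% higher. The nidogen gene Nid2, whose product bridges laminin and type IV collagen, fell by 1.12 (-1.12 ± 0.24), and the laminin chain gene Lamb2 fell by 0.43 (-0.43 ± 0.12). Lamb3, a chain of the laminin to which hemidesmosomes attach, rose by 0.69 ± 0.17, and Lama1 by 0.64 ± 0.17. Lamb3 stood at 0.28, 0.26 and 0.21 in casein plus E2 pools 1 to 3, against -0.02, -0.75 and -0.31 in casein pools, and at 0.07, 0.48 and 0.02 in soy plus E2 pools, against -0.34, -0.39 and -0.98 in soy pools.

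Of 18 genes of TGF-beta and other fibrogenic signals 3 rose and 1 fell for the E2 average, beside 6.73% of all genes called higher and 5.51% lower. The growth factor gene Tgfb3 rose by 1.34 ± 0.24 (adjusted p = 0.0134), Smad3 by 0.30 ± 0.08 and Tgfb2 by 0.29 ± 0.08, whereas Ltbp1, which stores latent TGF-beta in the matrix, fell by 0.67 (-0.67 ± 0.14). Tgfb3 was at 1.41, 1.14 and 1.16 in casein plus E2 pools 1 to 3, against -0.35, -0.97 and 0.02 in casein pools. It was at 0.55, 0.41 and -0.02 in soy plus E2 pools, against -0.30, -0.31 and -1.35 in soy pools, and soy plus E2 pool 3 was the sample with E2 that overlapped those without.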
